A study of Homo sapiens with 2 samples.

Results

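The oligoadenylate synthetase (OAS) family, with the genes OAS1, OAS2, OAS3 and OASL, was examined together with PNPT1 in RWPE-1 cells that had received pre-miR-424. The members were every probe of the array whose RefSeq accession belongs to 1 of these 5 genes, which gave 9 probes for 7 transcripts among 42405 probes and 19740 genes in all. The genes had been picked with the ratios of these same arrays in view. Their ratios are therefore given as a description, without a test. RWPE-1 is a line of noncancerous human prostate epithelial cells, and pre-miR-424 is an artificial precursor from which the cells make miR-424. Both RNAs came from RWPE-1 cells grown in keratinocyte serum-free medium, and the cells had been transfected at 30 nM with either Pre-miR-424 or, for the comparison, Negative control #1. They were hybridised together to 2 two-colour arrays. On the first array (normal labelling) the treated cells' RNA was labelled with Cy5, and on the second (dye swap) with Cy3. The arrays are technical replicates of a single pair of RNAs, so that they counted as 1 replicate and no p-value was computed. Each SD below is the spread between these 2 arrays and covers labelling and hybridisation only, and precision is limited by how few arrays there are. A ratio between such RNA pools cannot tell more RNA in each cell from more cells that express the gene.

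OAS enzymes bind double-stranded RNA, a sign of viral infection, and then join ATP into short oligoadenylates known as 2-5A, which switch on the cleavage of RNA and so halt protein synthesis. OAS1, OAS2 and OAS3 are active synthetases, whereas OASL carries ubiquitin-like repeats, makes no 2-5A and is known to enhance signalling by the RNA sensor RIG-I. The genes are classical targets of type I interferon, which acts through the factor ISGF3 on a promoter element made of repeated GAAA blocks. PNPT1 encodes polynucleotide phosphorylase, an exoribonuclease of mitochondria, and is likewise known as an interferon-induced gene.

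The microRNA that defined the treatment is printed first, since all ratios compare cells with and without its precursor. It is the mature miR-424-5p of RefSeq, 22 bases long, with bases 2 to 8, the seed, in capitals. This seed is shared by 7 mature human microRNAs of the table, miR-15a-5p, miR-15b-5p, miR-16-5p, miR-195-5p, miR-424-5p, miR-497-5p and miR-6838-5p.
hsa-miR-424-5p: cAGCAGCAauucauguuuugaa

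The promoters are shown because the members are known as targets of ISGF3. Windows of 250 bases before the start of the gene were taken from RefSeq (GRCh38.p14), which held 3 of the 5 members, whereas OAS2 and OASL are named only. OAS1 and OAS3 lie on the plus strand of chromosome 12 at chr12:112906712-112906961 and chr12:112938224-112938473, and PNPT1 lies on the minus strand of chromosome 2 at chr2:55693845-55694094. Each window is printed 5′ to 3′ on the strand of its gene, and capitals mark GAAA repeats separated by 1 base (GAAANGAAA) or by 2 bases (the ISRE core), which overlap in OAS3.
OAS1: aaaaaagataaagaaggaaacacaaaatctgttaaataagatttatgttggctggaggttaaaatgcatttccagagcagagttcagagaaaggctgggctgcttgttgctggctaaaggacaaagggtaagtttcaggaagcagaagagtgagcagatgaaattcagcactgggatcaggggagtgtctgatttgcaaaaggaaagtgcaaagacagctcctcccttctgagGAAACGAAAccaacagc
OAS3: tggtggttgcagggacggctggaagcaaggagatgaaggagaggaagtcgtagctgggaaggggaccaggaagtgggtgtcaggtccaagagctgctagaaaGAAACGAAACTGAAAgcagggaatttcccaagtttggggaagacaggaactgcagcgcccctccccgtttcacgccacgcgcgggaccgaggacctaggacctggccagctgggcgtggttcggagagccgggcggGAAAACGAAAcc
PNPT1: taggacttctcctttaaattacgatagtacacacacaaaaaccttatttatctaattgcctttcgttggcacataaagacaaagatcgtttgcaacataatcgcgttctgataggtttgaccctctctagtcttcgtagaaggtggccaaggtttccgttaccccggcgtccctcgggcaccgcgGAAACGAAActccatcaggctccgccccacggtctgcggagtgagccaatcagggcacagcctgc

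All 3 windows held the letters GAAACGAAA, which lay at bases −17 to −9 from the start in OAS1, at −148 to −140 in OAS3 and at −65 to −57 in PNPT1. The motifs chosen for the search on both strands were the core of the ISGF3 element (ISRE), in which 2 bases part the GAAA blocks, and the STAT dimer core TTCNNNGAA. The form with 1 base between the repeats was added after these sequences had been seen. Of the 3 windows that of OAS3 alone held the ISRE core in this form, as GAAACTGAAA at −143 to −134 and as GAAAACGAAA at −12 to −3. The first of these overlaps GAAACGAAA. The lack of this form in the other windows does not say that they hold no ISRE. TTCNNNGAA matched OAS1 at −168 to −160 as TTCAGAGAA and PNPT1 at −118 to −110 as TTCGTAGAA. Among all 35116 windows of this length, of which a gene can have several, 3.02% held the ISRE core, 6.57% held TTCNNNGAA, 2.69% held GAAANGAAA and 0.142% held GAAACGAAA. A match describes letters and is not a site of binding, and no factor was measured.

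On each array and in each channel the member probes stood well above background, so that all 9 passed the filter on dim signals. Across the series this filter and the removal of outlier spots kept 25664 probes and 13812 genes. Spots had a median brightness of 189 (Cy3) and 290 (Cy5) with normal labelling and of 165 and 314 on the dye swap, with no spot saturated. The error of a single array, the SD of the difference between the arrays over all measured probes divided by the root of 2, was 0.24 on the log2 scale. Of the markers of basal prostate epithelium, 5 of 5 genes (KRT5, KRT14, KRT15, TP63 and ITGA6) were measured, with a median log2 ratio of −0.21 that ran from −0.50 for KRT5 (0.09 and −1.09) to 0.32 for ITGA6 (0.25 and 0.40). KRT15 gave −0.22 and −0.54, and KRT14 gave 0.00 and −0.43. Of the luminal markers 3 of 5 were measured, while KLK3 was not well above background in every channel. CDH1 and EPCAM, which mark epithelium, were both measured. Of the 4 fibroblast and 4 leukocyte markers, 2 of each were measured (COL1A1 and DCN, PTPRC and CD14), with mean log2 ratios between −0.07 and 0.17. The part of these markers in the results below was not tested.

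On both arrays all 9 member probes were higher in the treated cells, with single-spot log2 ratios between 0.03 and 1.64 over 18 spots per array. Over all measured probes, 25.0% lay above 0 on both arrays. At 2-fold on both arrays, 2 of the 9 probes were higher, both of OAS2, against 0.0546% of all measured probes, and at a log2 ratio of 0.5 on both arrays 5 of 9 were higher, against 0.709%. As the members were picked on this contrast, nothing is read from these shares.

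**Figure D1:**
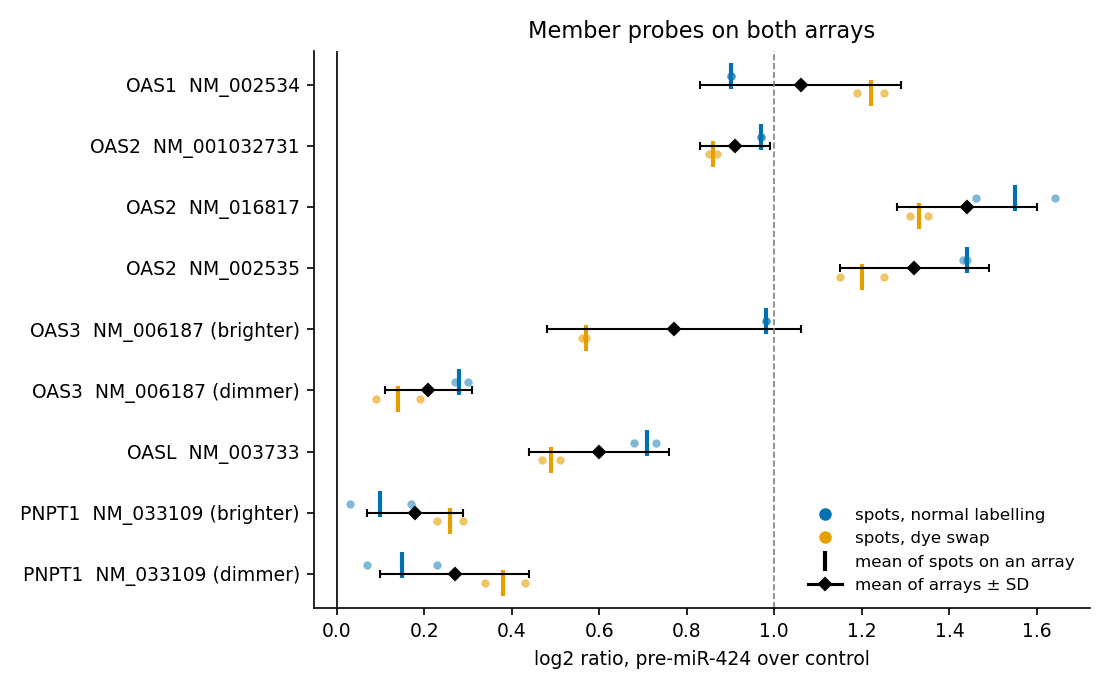
Log2 ratio of pre-miR-424 over control (x axis) for the 9 member probes (y axis), with dots for single spots, short vertical lines for the mean of the spots on an array, blue for normal labelling and orange for the dye swap, and diamonds with bars for the mean of the arrays ± SD; the dashed line marks 2-fold. The OAS2 probes of NM_016817 and NM_002535 lie wholly beyond 2-fold, whereas both PNPT1 probes and the dimmer OAS3 probe lie below 0.5.

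OAS1 makes 2-5A and is the smallest synthetase of the family. Its only probe (NM_002534) had log2 ratios of 0.90 on the array with normal labelling and 1.22 on the dye swap (mean 1.06, SD 0.23, 2.08-fold). The spots agreed closely within each array, with 0.90 and 0.90 on the first and 1.19 and 1.25 on the second. The array with normal labelling thus stood just below 2-fold and the dye swap above it. Among the 13812 measured genes OAS1 ranked 11 by the mean ratio, and with the brightest probe of each gene it was the only member of which the mean reached 2-fold, as did 0.123% of the measured genes.

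OAS2 is a synthetase with a duplicated OAS unit, and it was represented by 3 probes, assigned by the array design to 3 of its transcripts. The probe of NM_016817 gave 1.55 and 1.33 (mean 1.44, SD 0.16, 2.71-fold), from spots of 1.64 and 1.46 on the first array and 1.35 and 1.31 on the second. The probe of NM_002535 gave 1.44 and 1.20 (mean 1.32, SD 0.17, 2.5-fold). These probes ranked 4 and 8 among the 25664 measured probes and were the only member probes beyond 2-fold on both arrays. The probe of NM_001032731, the brightest of the 3 and so the one that stood for the gene, gave 0.97 and 0.86 (mean 0.91, SD 0.08, 1.88-fold). Its 4 spot readings all lay between 0.85 and 0.97, just below 2-fold.

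Because the OAS2 probes were read on the same arrays, their ratios can be set against each other array by array. The ratio of NM_016817 exceeded that of NM_001032731 by 0.58 and 0.47 (mean difference 0.52, SD 0.08), and that of NM_002535 exceeded it by 0.47 and 0.34 (mean 0.41, SD 0.09). Both differences exceeded the SD between the arrays, although an SD from 2 arrays is itself imprecise. The error of a single array over all measured probes was larger than these SDs, at 0.24. The ratio of NM_002535 minus that of NM_016817 was −0.11 and −0.13 (mean −0.12, SD 0.01), a gap no larger than the 0.18 between the spots of NM_016817 on the first array. Probe sequences were not analysed here, so that a probe assigned to 1 transcript may also read the others.

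OAS3, the largest synthetase, is known to make 2-5A at low amounts of double-stranded RNA. Its brighter probe (NM_006187) gave 0.98 on the array with normal labelling and 0.57 on the dye swap (mean 0.77, SD 0.29, 1.71-fold), the widest spread between the arrays among the members. Spots within an array were nearly alike (0.98 and 0.98, then 0.56 and 0.57), so that the spread lay between the arrays and not between spots. The dimmer probe of the same transcript gave 0.28 and 0.14 (mean 0.21, SD 0.10, 1.16-fold), lower than the brighter probe by 0.69 and 0.43 (mean difference −0.56, SD 0.19). Its background-subtracted signals were 188 with pre-miR-424 against 108 in the control on the first array, so that the offset added to every signal in the processing weighed more on this probe than on the others. With an offset of 16 in place of 50 the dimmer probe gave 0.34 and 0.18, and the ratios of the scanner software gave 0.43 and 0.22, still below those of the brighter probe.

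OASL, the member without synthetase activity, gave 0.71 and 0.49 on its only probe (NM_003733; mean 0.60, SD 0.16, 1.51-fold). Its 4 spot readings were 0.73 and 0.68 on the first array and 0.51 and 0.47 on the second. With the brightest probe of each gene it was the lowest of the OAS genes, at rank 129 of the measured genes, whereas OAS3 was lower with the mean over its probes (0.49) or its dimmest probe (0.21).

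PNPT1 had the lowest mean ratio of the 5 genes by the brightest probe, whereas by the dimmest probe OAS3 lay below it (0.21 against 0.27). Its brighter probe (NM_033109) gave 0.10 on the array with normal labelling and 0.26 on the dye swap (mean 0.18, SD 0.11, 1.13-fold), and the spots of the first array lay at 0.03 and 0.17. The dimmer probe of the same transcript gave 0.15 and 0.38 (mean 0.27, SD 0.17, 1.2-fold). Both means were near the single-array error of 0.24, although that error is for 1 array and is larger than that of a mean of 2. Of all measured probes, 12.5% had a mean ratio at or above that of the brighter probe, and 6.08% at or above that of the dimmer one.

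**Figure D2:**
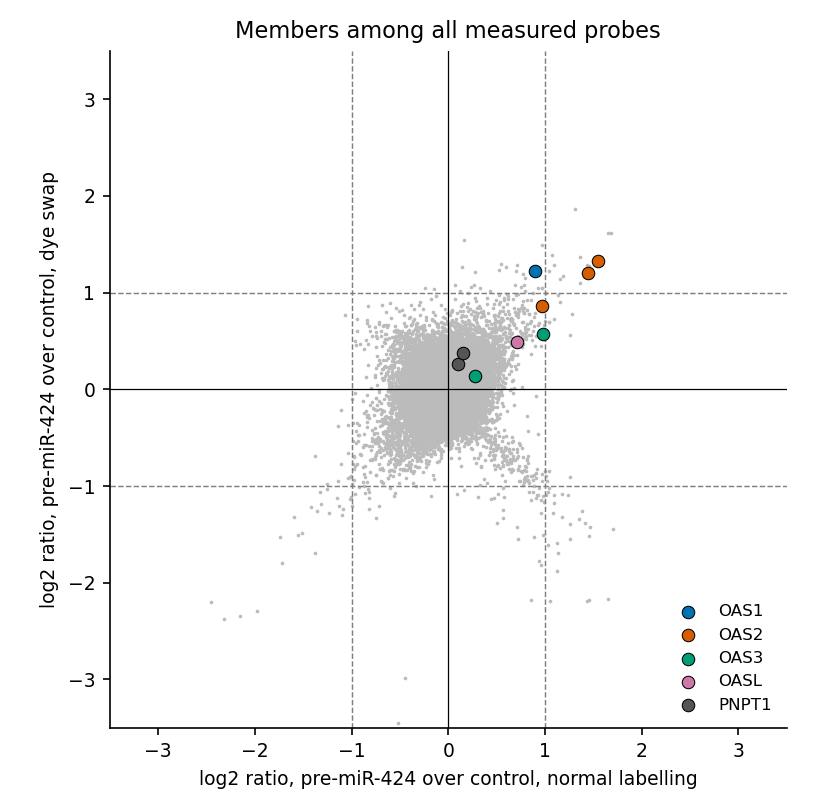
Log2 ratio of pre-miR-424 over control on the array with normal labelling (x axis) against the dye swap (y axis) for all 25664 measured probes (grey) and the 9 member probes (coloured by gene), with dashed lines at 2-fold. The 3 OAS2 probes, OAS1, OASL and the brighter OAS3 probe lie at the upper right edge of the cloud, and both PNPT1 probes and the dimmer OAS3 probe lie inside it; grey points at the lower right follow the dye and not the treatment.

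With the brightest probe of each gene, the order by the mean log2 ratio was OAS1, OAS2, OAS3, OASL and PNPT1. The first 3 could not be put in order beyond the spread between the arrays. OAS1 minus OAS2 was −0.07 on the first array and 0.36 on the second (mean 0.15, SD 0.30), and OAS2 minus OAS3 was −0.01 and 0.29 (mean 0.14, SD 0.22), so that each of these differences changed sign between the arrays. OAS2 exceeded OASL by 0.26 and 0.37 (mean 0.32, SD 0.08), and OAS3 exceeded OASL by 0.27 and 0.08 (mean 0.17, SD 0.13). OASL in turn exceeded PNPT1 by 0.61 and 0.23 (mean 0.42, SD 0.27). The order among the OAS genes also depended on the probe, since the other OAS2 probes both exceeded OAS1 in their means. At 2-fold on both arrays 0 of the 5 genes were higher, against 0.0724% of the measured genes. With the mean over a gene's probes OAS2 passed, again against 0.0724%, and on the dye swap alone OAS1 passed, against 0.203%. At 1.5-fold on both arrays 2 of 5 genes were higher (OAS1 and OAS2), against 0.623%, and at a log2 ratio of 0.5 on both arrays 3 of 5 were (OAS1, OAS2 and OAS3), against 0.97%. The median of the 5 genes was 0.77, with 0.90 on the first array and 0.57 on the second, whereas the median of all measured genes was −0.004.

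The signals before normalization show what the dye does to these ratios. Over all measured probes, 94.0% were brighter in Cy5 on the first array and 98.9% on the dye swap, whichever RNA it carried. On the first array, where Cy5 carried the treated RNA, OAS1 gave 4077 intensity units above local background against 1443 in the control. On the dye swap, with the treated RNA in the weaker Cy3, OAS1 still gave 2732 against 2268. The OAS2 probe of NM_016817 likewise gave 2076 against 462 and then 1052 against 763, and that of NM_002535 gave 1561 against 370 and then 854 against 668. These 3 of the 9 member probes were thus brighter with pre-miR-424 on both arrays without any normalization, as were 205 of all 25664 measured probes (0.799%).

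For the other 6 member probes the control was brighter on the dye swap, so that the sign of their ratio on that array rests on the correction for dye. The OAS2 probe of NM_001032731 gave 5284 against 1774 on the first array and 2900 against 3118 on the second, and the brighter OAS3 probe gave 3540 against 1186 and then 1802 against 2352. OASL gave 12810 against 4974 and then 6522 against 9499. For PNPT1 the brighter probe gave 12660 against 7435 and then 7490 against 12930, so that the brighter channel was Cy5 on both arrays by a similar factor. This is the pattern of most probes on these arrays.

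**Figure D3:**
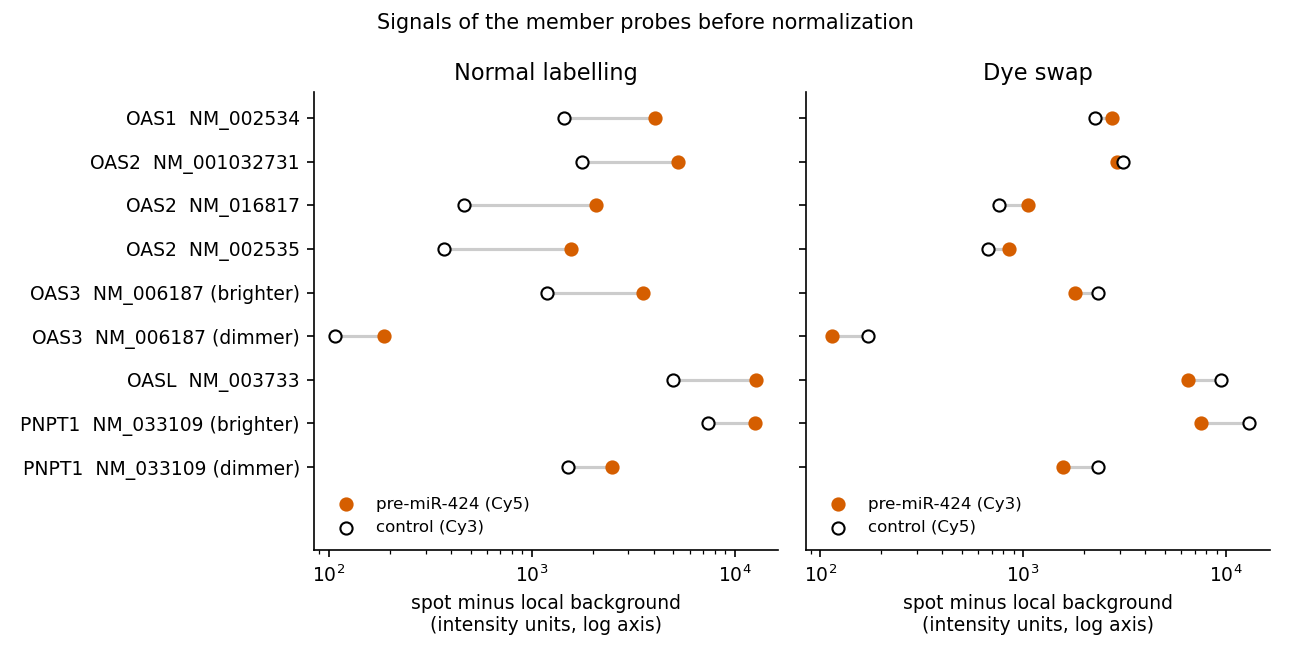
Signal minus local background, in intensity units on a log axis, of each member probe (y axis) on the array with normal labelling (left) and the dye swap (right), with filled points for cells with pre-miR-424 and open points for the control. Filled points lie to the right for all 9 probes on the left panel, and for OAS1 and the OAS2 probes of NM_016817 and NM_002535 on the right panel, where the treated RNA carried Cy3.

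A further 3 genes of the 2-5A pathway, not the whole of it, were read beside the synthetases. PDE12, a phosphodiesterase that degrades 2-5A, gave −0.24 and 0.08, ABCE1, a ribosome recycling factor, gave −0.43 and 0.08, and AKAP7, a kinase anchoring protein with a phosphodiesterase-like domain, gave 0.09 and −0.08. Each of these 3 genes changed sign between the arrays, and their median was −0.08 by the mean of the arrays.

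Among 10 sensors and enzymes that act on double-stranded RNA, the ligand of the synthetases, 7 were above 0 on both arrays, against 26.8% of all measured genes. At a log2 ratio of 0.5 on both arrays 1 was higher and 0 were lower, where 0.825% of all measured genes were lower. That gene was ZBP1, a sensor of nucleic acids in the Z form, with 1.01 and 0.99. DHX58 (0.49 and 0.66), IFIH1, which encodes the sensor MDA5 (0.50 and 0.35), and RIGI, which encodes RIG-I (0.55 and 0.28, with 0.53 and 0.98 on another probe), came next. EIF2AK2, the kinase PKR that also halts translation in response to double-stranded RNA, gave 0.09 and 0.30. The count of 7 rests on the brightest probe of each gene. Another probe changed sign between the arrays for EIF2AK2 (−0.06 and 0.53) and for ZC3HAV1 (−0.17 and 0.20). For MAVS, which was not among the 7, another probe lay above 0 on both arrays (0.12 and 0.07). The median of the list was 0.19.

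From the interferon receptor to ISGF3, 12 of 12 genes were measured, with a median of 0.24. At a log2 ratio of 0.5 on both arrays 4 were higher, against 0.97% of all measured genes, and 0 were lower, against 0.825%. Over all 6 lists 5 genes were higher by this rule, and 2 under median centring of the arrays. The 4 were STAT2 (0.62 and 0.54) and IRF9 (0.70 and 0.64), which are subunits of ISGF3, IRF7 (1.04 and 0.69), a factor that induces interferon genes, and USP18 (0.84 and 0.77), an inhibitor of the receptor. Both named subunits were thus above 0 on both arrays, whereas the receptor-bound kinases JAK1 (−0.35 and 0.08) and TYK2 (0.11 and −0.07) changed sign between them.

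Enzymes related to the members by chemistry were counted at a log2 ratio of 0.5 on both arrays. By this rule 0.97% of all measured genes were higher and 0.825% were lower, so that 0 in lists this small sets nothing apart. OAS proteins belong to the fold of template-independent nucleotidyltransferases, and of 12 measured genes of that list, 0 passed 0.5 on both arrays in either direction (median −0.08). CGAS, the DNA sensor closest to the OAS proteins in structure, gave −0.25 and 0.30, and TUT1, a terminal uridylyltransferase, gave −0.39 and −0.42. Among 14 measured genes of mitochondrial RNA decay and processing, the setting in which PNPT1 acts, 0 passed in either direction (median 0.02). SUPV3L1, the helicase partner of PNPT1, gave −0.49 and 0.45, opposite on the 2 arrays. Of 14 measured genes of the RNA exosome, which contains relatives of PNPT1, and other exoribonucleases, 0 passed (median 0.00).

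**Figure D4:**
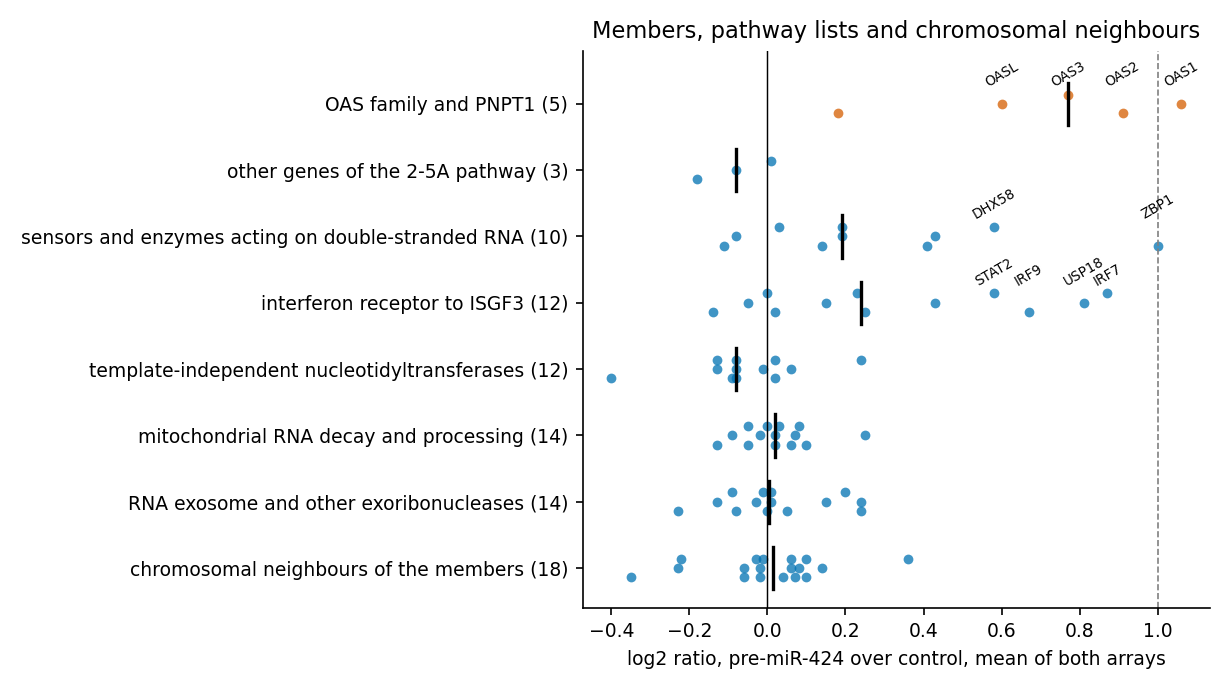
Log2 ratio of pre-miR-424 over control, as the mean of both arrays (x axis), with 1 point for each measured gene by its brightest probe, for the members, 6 gene lists and the neighbours on the chromosome (number of genes in brackets); vertical bars are medians, the dashed line marks 2-fold, and members or list genes at or above 0.5 on the mean are named. The unnamed orange point is PNPT1. The 4 OAS genes lie between 0.60 and 1.06, and the lists of nucleotidyltransferases, mitochondrial RNA decay and exosome lie around 0.

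OAS1, OAS3 and OAS2 lie side by side on chromosome 12, OASL lies elsewhere on the same chromosome, and PNPT1 lies on chromosome 2. The 3 nearest measured genes on either side of each locus, 18 in all, were read to see whether the ratios of the members extended to the genes around them. Of these, 0 were higher and 0 were lower by 0.5 on both arrays, against 0.97% and 0.825% of all measured genes. With shares this small, 0 among 18 genes does not set the neighbours apart from other genes. Their means ran from −0.35 to 0.36 with a median of 0.02. Beside the OAS cluster, RPH3A gave −0.52 and −0.18 and RASAL1 gave 0.03 and −0.08. P2RX4, the neighbour of OASL and the highest of the 18, gave 0.51 and 0.20. PPP4R3B, next to PNPT1, gave −0.27 and −0.18.

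Genes with the pair of ratios most like that of each member were found by the distance between the pairs over the 2 arrays. For OAS1 these were CXCL10 (0.79 and 1.15), ASPH (0.77 and 1.19) and BTG3 (0.93 and 1.05), with 8 genes within a distance of 0.2. For OAS2 they were HIRA (0.97 and 0.88), CXCL11 (0.93 and 0.88) and TMA16 (0.90 and 0.79), with 24 genes within 0.2. OAS3 had PIK3IP1 (0.91 and 0.55), METRN (0.88 and 0.61) and IL6 (0.92 and 0.66), with 20. For OASL they were MCOLN1, ANGPTL4 and AKAP12, with 71 genes within 0.2. PNPT1 had 2431 genes within the same distance, so that its nearest, RGL1, TIA1 and PRPS2, were 3 of many genes with nearly the same pair. With 2 arrays of the same RNAs, likeness says no more than that the values are close.

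The mean ratio of each of the 5 genes stayed above 0 under all 12 alternatives, several of which could not change this. Weaker filters and kept outlier spots left every value as it was, since all member probes had passed the main filter. With every member probe above 0 on both arrays, a single array or another probe could not turn a mean either. OAS1 ranged from 0.90 to 1.22, OASL from 0.49 to 0.71 and PNPT1 from 0.10 to 0.27. OAS2 ranged from 0.85 to 1.32 and OAS3 from 0.21 to 0.98, where the choice of probe set the end of the range at 1.32 and at 0.21. When the loess fit was replaced by centring on the array's median, which moved the median of all genes to 0.13 on the first array and −0.23 on the second, the brighter PNPT1 probe changed sign between the arrays (0.34 and −0.09). OASL then gave 0.92 and 0.15, and the brighter OAS3 probe 1.12 and 0.30.

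**Figure D5:**
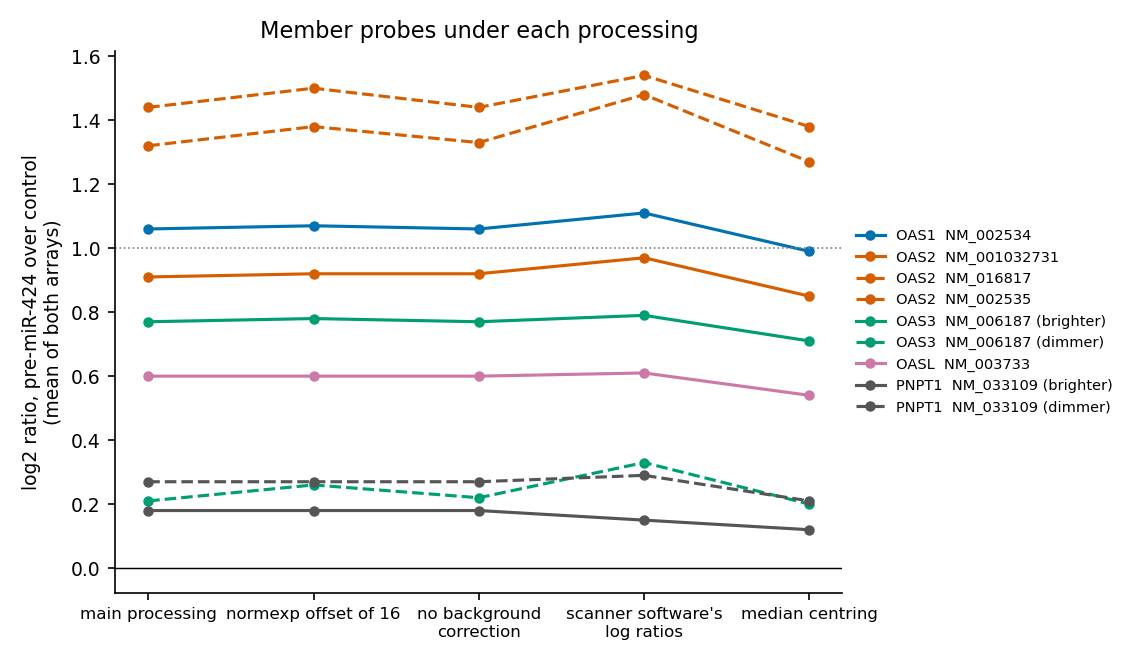
Log2 ratio of pre-miR-424 over control, as the mean of both arrays (y axis), of each member probe under 5 ways of processing (x axis), with solid lines for the probe that stood for its gene and dashed lines for the others; the dotted line marks 2-fold, and the lines join values of 1 probe. All 9 probes stay above 0 in their means, and the OAS2 probes of NM_016817 and NM_002535 stay above 2-fold throughout.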

How the data were processed

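RNA was amplified, labelled and hybridised to 2 Agilent arrays by the authors. Per the file headers the scanner software was Agilent Feature Extraction 10.7.3.1, with an array design on hg19. The deposited scanner files hold the median intensity of each spot and its local background per channel, not normalized, and a log10 ratio (Cy5 over Cy3) from the software. A deposited table holds log2 ratios of which the scale and steps are not given in the sources used here. Its columns matched Cy5 over Cy3 on both arrays (Pearson correlations of 0.991 and 0.988 with the values computed here, medians of 0.0236 and 0.0355). The submitters' processing notes name limma.

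With R 4.3.3 and limma 3.58.1, intensities received a normexp correction (offset 50), which draws the ratios of dim probes towards 0. Control spots were then left out, each array was normalized by loess, spots of a probe were averaged, and ratios were turned to pre-miR-424 over control. Measured probes were those without an outlier spot that stood well above background on each array in each channel, and the brightest measured probe stood for its gene. Probes were named through RefSeq accessions, of which 25771 of 27134 (95.0%) matched a symbol (GRCh38.p14), and no gene was placed by the array's coordinates. The steps were tested on simulated data, and tables were made in Python 3.11.15 (pandas 2.3.3, numpy 2.4.6).

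The members, the gene lists and the motifs were chosen with earlier results of these data known. Genes named by rule were the members, the genes of the lists (chromosomal neighbours and markers included) and, for each member, the 3 genes with the nearest pair of ratios. The 4 genes named for a promoter motif were chosen after their values were seen. A planned comparison of proteins was not run, and some genes of the planned lists are not reported here. Alternatives comprised median centring, an offset of 16, omission of the background correction, the software's ratios, the deposited ratios, weaker or no filters, outlier spots kept, each array alone, other thresholds, the mean over probes and, added after seeing the data, the dimmest probe.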

Additional observations from a re-analysis of the deposited data

How the results depend on the processing

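The mean log2 ratios of the 5 genes kept their direction under all 12 alternatives run, although PNPT1 turned on the dye swap under median centring (0.34 and −0.09). The filters, the single arrays and the choice of probe could not turn a mean. Every member probe had passed the main filter and lay above 0 on both arrays. With the main processing 0 of the 5 genes were higher at 2-fold on both arrays, against 0.0724% of all measured genes. The count was 1 with the mean over the probes of a gene (OAS2), against 0.0724%. With the dimmest probe, an alternative chosen after seeing the data, it was 1 (OAS2), against 0.0652%. It was 2 at 1.5-fold on both arrays (OAS1 and OAS2), against 0.623%, and 1 at 2-fold on the mean of both arrays (OAS1), against 0.123%. When each array was left out in turn, it was 0 on the array with normal labelling alone, against 0.253%. On the dye swap alone it was 1 (OAS1), against 0.203%. OAS2 moved to 1.22 with the mean over probes and to 1.32 with the dimmest probe, and OAS3 moved to 0.21 with the dimmest probe. The number of list genes higher by 0.5 on both arrays fell from 5 to 2 under median centring and was 5 or 6 under the other alternatives, and 0 were lower throughout. The cause was not tested. The median of the 5 genes lay between 0.57 and 0.90. The mean pixel signal and the gene name column, planned as alternatives, were not run. No paired analysis was possible because the arrays form a single replicate, so that there are no replicate numbers to block on beyond the ratio within each array. Signal over background limits the dimmer OAS3 probe most.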

Other observations

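The letters GAAACGAAA, found in the promoter windows of OAS1, OAS3 and PNPT1 and searched for after those had been seen, were also counted for the other genes. Of 26 further measured genes with a window that held them, 4 were higher by a log2 ratio of 0.5 on both arrays (15.4%) and 1 was lower, with a median of 0.14. Among all 10958 measured genes with a window, 111 were higher (1.01%), 93 were lower and the median was −0.01. The 4 genes, named after their values were seen, were CMPK2 (1.37 and 1.37), a nucleotide kinase, its neighbour RSAD2 (0.72 and 0.99), which encodes the antiviral protein viperin, MX1 (1.45 and 1.28), an antiviral GTPase, and PLSCR1 (0.71 and 0.79), a phospholipid scramblase. CMPK2 and RSAD2 are neighbours, so that these genes do not count as independent. For the ISRE core, with 2 bases between the blocks, 18 of 377 further genes were higher (4.77%) and 5 were lower. For GAAANGAAA 11 of 327 were higher (3.36%) and 3 were lower. These 11 include the 4 genes named above, since GAAACGAAA is 1 form of GAAANGAAA. For TTCNNNGAA the counts were 11 of 817 higher (1.35%) and 9 lower, near the share of all genes. These shares are a description, and no test was made of them.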
